A study of Rattus norvegicus with 48 samples.

Results

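Arc, Bdnf, Homer1, Dusp1, Dusp5 and Dusp6 are genes that neurons switch on when they fire or receive growth factor signals. The 6 genes were read by 14 probe sets, short groups of oligonucleotides that each report 1 transcript region, out of 31042 probe sets tested and 14217 genes with a probe set of a single symbol. A probe set was taken where the platform annotation gave it 1 of these symbols and no other. Arc and Dusp5 had 1 probe set each, Bdnf and Dusp1 had 2, Dusp6 had 3 and Homer1 had 5. In each tissue the probe set with the highest mean over 24 arrays represented its gene, and all 6 genes were measured in both tissues with no filter on dim signals.

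Male Sprague-Dawley rats swallowed 1 gel capsule of RDX, a nitramine explosive that causes seizures at high doses, and their brain cortex and liver were profiled. Doses were 18 or 3 mg/kg, set to avoid seizures, and tissue was taken at 0, 4, 24 and 48 h, with 3 arrays for each of the 16 combinations of tissue, dose and time. The labels name no genetic change and no age, and no group with an empty capsule is among the arrays used here. Each later group was therefore set against 0 h in its own dose arm and tissue. Values are log2 levels. The labels do not tie the 3 arrays of a group to separate rats, so p-values measure only the spread between arrays, which may be technical. They give no hour of day for the tissue collection, so time after dosing cannot be told apart from the hour of day.

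Synaptic activity raises calcium and starts the ERK cascade, a chain of kinases that ends in phosphorylated transcription factors such as CREB and the SRF partner proteins. These switch on a first wave of genes within minutes, and the proteins of that wave change the synapse or damp the signal. Arc removes AMPA receptors from the synapse, Bdnf encodes a secreted growth factor that binds the receptor TrkB, and Homer1 encodes a postsynaptic scaffold with a short form that activity induces and long forms that are always made. Dusp1, Dusp5 and Dusp6 encode phosphatases that switch MAP kinases off: Dusp1 acts in the nucleus on p38, JNK and ERK, Dusp5 in the nucleus on ERK, and Dusp6 in the cytoplasm on ERK. In liver the same phosphatases respond to hormones, growth factors and stress.

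Binding motifs for these transcription factors were looked for in the 250 bases before the start of each gene, taken from RefSeq (GRCr8), which held 10 such windows for 5 of the 6 genes. Arc had no entry in the table. The motifs were the full CREB element TGACGTCA, its part TGACG, the E-box CACGTG and the CArG box bound by SRF, on both strands, with the shorter CREB motif also counted inside the full one. The 3 stretches with a match are shown because they are the members' own control regions that hold these motifs, with matches in capitals.
Dusp1, chr10:17184656-17184776, plus strand: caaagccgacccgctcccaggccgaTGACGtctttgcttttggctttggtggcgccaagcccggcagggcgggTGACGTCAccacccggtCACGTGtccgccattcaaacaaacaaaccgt
Dusp5, chr1:262543667-262543748, plus strand: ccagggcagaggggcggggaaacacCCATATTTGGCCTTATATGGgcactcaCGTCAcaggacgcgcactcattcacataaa
Bdnf, chr3:116637798-116637852, plus strand: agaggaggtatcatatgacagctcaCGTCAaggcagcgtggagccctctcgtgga
Dusp1 held the full CREB element, a second TGACG and an E-box, in the stretch from base -197 to base -77 relative to its start. Dusp5 held 2 CArG boxes next to each other and 1 TGACG on the other strand. Bdnf held 1 TGACG on the other strand in 1 of its 6 windows, and Homer1 and Dusp6 held none of these letters in their windows. The shares of all 33469 promoters with a match in the same 250 bases were 1.587% for TGACGTCA, 18.217% for TGACG, 5.593% for CACGTG and 1.497% for the CArG box. A match describes the letters only and shows no binding.

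RNA quality and the levels of hepatocyte markers varied between arrays. The actin gap, the log2 signal at the 3' end of the actin transcript minus that at its 5' end, widens as RNA degrades and ran from 1.65 to 4.61 in cortex and was above 3 in 10 of 24 cortex arrays. All 3 cortex arrays at 4 h after 18 mg/kg were among these. In liver the gap ran from 0.62 to 4.38 and was above 3 in 18 of 24 arrays. Its liver group mean in the 3 mg/kg arm was 3.85 at 0 h and 3.15 at 48 h. The mean of 7 hepatocyte markers ran from 4.88 to 10.64 in cortex, against 10.52 to 13.23 in liver. The cortex array with the highest hepatocyte mean was from 48 h after 18 mg/kg. Pyramidal neuron markers averaged 8.59 to 9.26 over the cortex groups and 5.43 to 5.90 over the liver groups. In cortex their later averages lay below 0 h in the 18 mg/kg arm and above it in the 3 mg/kg arm. In liver, replicate 2 at 0 h of the 3 mg/kg arm and replicate 1 at 4 h after 18 mg/kg stood apart, with array-wide SDs of 1.5 and 1.39 against 1.83 to 2.09 on the other liver arrays.

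At 0 h, Arc, Homer1 and Bdnf were higher in cortex than in liver, and Dusp6 and Dusp5 were lower. Arc was 3.72 ± 0.25 (SE) log2 units higher in cortex than in liver, with 9.15 ± 0.28 (SD, n = 6) in cortex and 5.43 ± 0.17 in liver. Homer1 was 3.13 ± 0.23 higher in cortex, with 11.13 ± 0.19 in cortex and 8.0 ± 0.89 in liver. Bdnf was 2.90 ± 0.20 higher in cortex, with 7.69 ± 0.13 in cortex and 4.79 ± 0.61 in liver. The limma adjusted p was 2.4e-16 for Arc, 4.0e-15 for Homer1 and 5.4e-16 for Bdnf, and no cortex array of these genes overlapped the liver arrays. All liver readings of Arc and Bdnf at 0 h lay below the medians of those arrays, 6.09 to 6.37. Whether such dim readings exceed background was not tested, so the sizes of these 2 differences are uncertain. In bulk samples such as these, fewer cells of a type and less RNA per cell cannot be told apart.

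Of the phosphatases, Dusp6 was lower in cortex, with a difference of -1.35 ± 0.17 (SE) and levels of 9.06 ± 0.22 (SD, n = 6) in cortex and 10.41 ± 0.39 in liver (adjusted p = 3.8e-09). Dusp5 was lower in cortex, with a difference of -0.63 ± 0.24 and levels of 6.54 ± 0.16 in cortex and 7.18 ± 0.82 in liver (adjusted p = 0.016), and its groups overlapped. The Dusp5 call rested on single liver arrays: it was -0.39 (adjusted p = 0.11) without replicate 3 at 0 h of the 3 mg/kg arm and -0.52 (adjusted p = 0.058) without replicate 3 of the 18 mg/kg arm. Dusp1 did not pass, at 0.55 ± 0.35 (adjusted p = 0.15), with 8.95 ± 0.47 in cortex and 8.40 ± 0.87 in liver. This too rested on a single liver array: Dusp1 passed, at 0.84 (adjusted p = 0.026), without replicate 3 at 0 h of the 3 mg/kg arm.

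In all, 5 of 6 genes passed between the tissues, 3 higher and 2 lower in cortex. Of all probe sets 77.4% passed, 30.8% higher and 46.5% lower in cortex, so the members' share is close to that of the array as a whole. Other probe sets of these genes did not all give the same picture. For Bdnf, 1368678_at, which represents it in liver, gave a difference of 0.84 ± 0.16, with 5.93 ± 0.13 in cortex and 5.08 ± 0.39 in liver; the ranges overlapped. For Dusp6, probe set 1382778_at gave a difference of -3.02 ± 0.22, while 1387024_at gave 0.09 ± 0.29 (adjusted p = 0.79). For Homer1, 1368319_a_at gave 0.35 ± 0.21 (adjusted p = 0.13), whereas 1370454_at, 1370656_a_at and 1370997_at were 4.55, 2.75 and 2.13 higher in cortex.

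**Figure D1:**
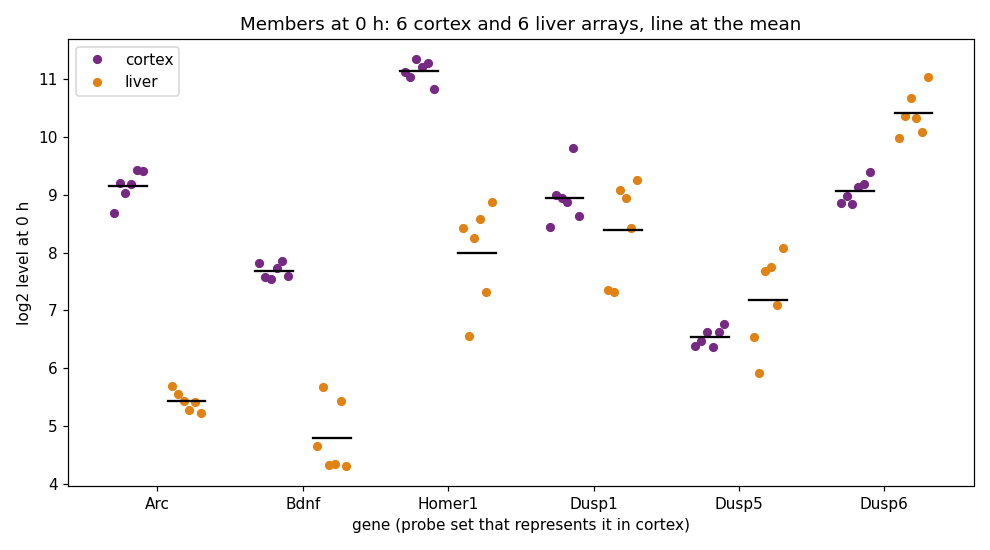
Log2 level at 0 h of the 6 genes in 6 cortex arrays (purple, left) and 6 liver arrays (orange, right), on the probe set that represents each gene in cortex, with a line at the mean. Arc, Bdnf and Homer1 lie higher in cortex with no overlap, Dusp6 lies lower in cortex, and Dusp1 and Dusp5 overlap.

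In cortex, Arc had its highest levels at 0 h in both dose arms. In the 18 mg/kg arm Arc read 9.18, 9.42 and 9.42 at 0 h, 8.43, 8.37 and 7.56 at 4 h, 7.12, 8.19 and 9.02 at 24 h, and 7.88, 7.29 and 7.86 at 48 h. Arc arrays of the 3 mg/kg arm read 8.68, 9.20 and 9.04 at 0 h, 7.83, 7.03 and 7.74 at 4 h, 7.26, 7.65 and 8.54 at 24 h, and 7.16, 7.41 and 8.69 at 48 h. The arrays of 4, 24 and 48 h all lay below those of 0 h in the 18 mg/kg arm, and of the 3 mg/kg arm only replicate 3 at 48 h reached the 0 h range. The 24 h group after 18 mg/kg spread from 7.12 to 9.02, and its change was -0.73 without replicate 1 and -1.68 without replicate 3.

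The mean log2 change of Arc from 0 h was -1.22, -1.23 and -1.66 at 4, 24 and 48 h after 18 mg/kg, and -1.44, -1.15 and -1.21 after 3 mg/kg, each with an SE of 0.43. The smallest adjusted p of the 6 contrasts was 0.10, at 48 h after 18 mg/kg, so none passed. Group means ran from 9.34 ± 0.14 (SD, n = 3) and 8.97 ± 0.26 at 0 h of the 18 and 3 mg/kg arms to 7.53 ± 0.44 at 4 h after 3 mg/kg. The step below each 0 h group was larger than the SDs on both sides of it, and the 6 later groups did not differ from their neighbours in that order beyond their SDs.

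Dusp6, the cytoplasmic ERK phosphatase, lay lower at later times with the 18 mg/kg arm farthest from its 0 h group. Dusp6 arrays of the 18 mg/kg arm read 9.13, 9.19 and 9.39 at 0 h, 9.02, 8.81 and 8.52 at 4 h, 8.56, 8.54 and 8.77 at 24 h, and 8.25, 8.62 and 8.26 at 48 h. Dusp6 arrays of the 3 mg/kg arm read 8.85, 8.98 and 8.83 at 0 h, 8.80, 8.61 and 8.17 at 4 h, 8.77, 8.82 and 8.57 at 24 h, and 8.64, 8.71 and 8.90 at 48 h. All later arrays of the 18 mg/kg arm lay below its 0 h arrays, as did the 4 and 24 h arrays of the 3 mg/kg arm, whose 48 h arrays overlapped 0 h.

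The change of Dusp6 from 0 h was -0.45, -0.62 and -0.86 at 4, 24 and 48 h after 18 mg/kg, and -0.36, -0.17 and -0.14 after 3 mg/kg, with an SE of 0.15. At 48 h after 18 mg/kg the adjusted p was 0.062, just outside the threshold of 0.05. It passed, at the same size, when only 1 probe set per gene was tested (adjusted p = 0.037) and reached -0.98 (adjusted p = 0.0036) without replicate 2 of that group. It was -0.53 (adjusted p = 0.18) with cortex arrays of an actin gap above 3 left out, which left 1 array at 48 h, assumed to vary like the other groups, and 2 at 0 h. It was -0.93 (adjusted p = 0.093) with the hepatocyte mean as a term. The hepatocyte mean of that group was 8.68, against 6.22 at 0 h. A second Dusp6 probe set, 1387024_at, gave -1.36, -0.90 and -1.34 after 18 mg/kg, and 1382778_at gave -0.12, -0.03 and 0.27.

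Dusp5, the nuclear ERK phosphatase, had differences of the same sign in all 6 contrasts. Dusp5 arrays of the 18 mg/kg arm read 6.37, 6.63 and 6.77 at 0 h, 6.50, 6.36 and 6.27 at 4 h, 6.10, 6.18 and 6.90 at 24 h, and 6.20, 6.24 and 6.28 at 48 h. Dusp5 arrays of the 3 mg/kg arm read 6.38, 6.47 and 6.63 at 0 h, 6.06, 6.34 and 6.36 at 4 h, 6.27, 6.32 and 6.35 at 24 h, and 5.98, 6.16 and 6.40 at 48 h. The 48 h arrays of the 18 mg/kg arm and the 4 and 24 h arrays of the 3 mg/kg arm lay below the 0 h arrays of their arm, and the 24 h array of 6.90 lay above them. The changes from 0 h were between -0.18 and -0.35 with an SE of 0.16, and the smallest adjusted p was 0.29.

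Dusp1, which acts on the stress kinases as well as ERK, had its lowest cortex levels at 4 and 24 h after 18 mg/kg. In that arm it read 8.88, 9.80 and 8.63 at 0 h, 8.33, 8.55 and 8.01 at 4 h, 8.26, 8.13 and 8.51 at 24 h, and 9.10, 8.44 and 8.69 at 48 h. Dusp1 arrays of the 3 mg/kg arm read 8.44, 8.99 and 8.94 at 0 h, 9.09, 8.28 and 8.86 at 4 h, 8.97, 8.36 and 9.06 at 24 h, and 8.23, 8.56 and 8.95 at 48 h. After 18 mg/kg the 4 and 24 h arrays all lay below the 0 h arrays, which included 1 high array of 9.80, and after 3 mg/kg the times overlapped. The changes were -0.81, -0.81 and -0.36 (SE 0.29) after 18 mg/kg and -0.05, 0.01 and -0.21 after 3 mg/kg, and the smallest adjusted p was 0.45.

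Homer1 was read by a bright representative probe set and 4 others. The representative, 1368318_at, read 11.20, 11.27 and 10.82 at 0 h, 11.06, 10.59 and 10.98 at 4 h, 10.97, 10.77 and 11.09 at 24 h, and 10.85, 10.40 and 10.89 at 48 h in the 18 mg/kg arm. Homer1 arrays of the 3 mg/kg arm read 11.11, 11.04 and 11.34 at 0 h, 10.99, 11.01 and 10.50 at 4 h, 10.88, 10.68 and 10.78 at 24 h, and 10.94, 11.09 and 10.79 at 48 h. Its changes were between -0.16 and -0.38 with an SE of 0.17 (smallest adjusted p = 0.26), and later groups overlapped 0 h except for the 3 mg/kg arm at 4 and 24 h, which lay below it.

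Other Homer1 probe sets had larger differences from 0 h. Probe set 1370997_at read 9.34, 9.88 and 9.06 at 0 h, 9.18, 7.84 and 8.43 at 4 h, 8.34, 7.73 and 9.75 at 24 h, and 7.91, 8.14 and 7.83 at 48 h after 18 mg/kg, a change of -1.47 ± 0.39 (SE) at 48 h (adjusted p = 0.11). Probe set 1370454_at had its largest difference at 24 h after 3 mg/kg, -0.99 ± 0.31 (adjusted p = 0.18), where it read 9.98, 9.78 and 9.92, against 10.88, 10.97 and 10.81 at 0 h. The 48 h arrays of 1370997_at after 18 mg/kg and the 24 h arrays of 1370454_at after 3 mg/kg lay below all 0 h arrays of their arm. The platform annotation does not say which probe sets read the short, activity-induced form.

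For Bdnf, cortex levels at later times lay on both sides of those at 0 h. Bdnf arrays of the 18 mg/kg arm read 7.73, 7.86 and 7.59 at 0 h, 7.81, 7.40 and 7.77 at 4 h, 7.56, 7.82 and 8.29 at 24 h, and 7.59, 6.99 and 8.30 at 48 h. Bdnf arrays of the 3 mg/kg arm read 7.83, 7.57 and 7.55 at 0 h, 7.61, 7.60 and 7.61 at 4 h, 7.52, 7.11 and 7.50 at 24 h, and 7.48, 7.88 and 7.49 at 48 h. Later groups overlapped 0 h except at 24 h after 3 mg/kg, which lay below it, and the 48 h group after 18 mg/kg held the lowest and the highest value of all. Changes were between -0.27 and 0.17 with an SE of 0.24, and the smallest adjusted p was 0.59.

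**Figure D2:**
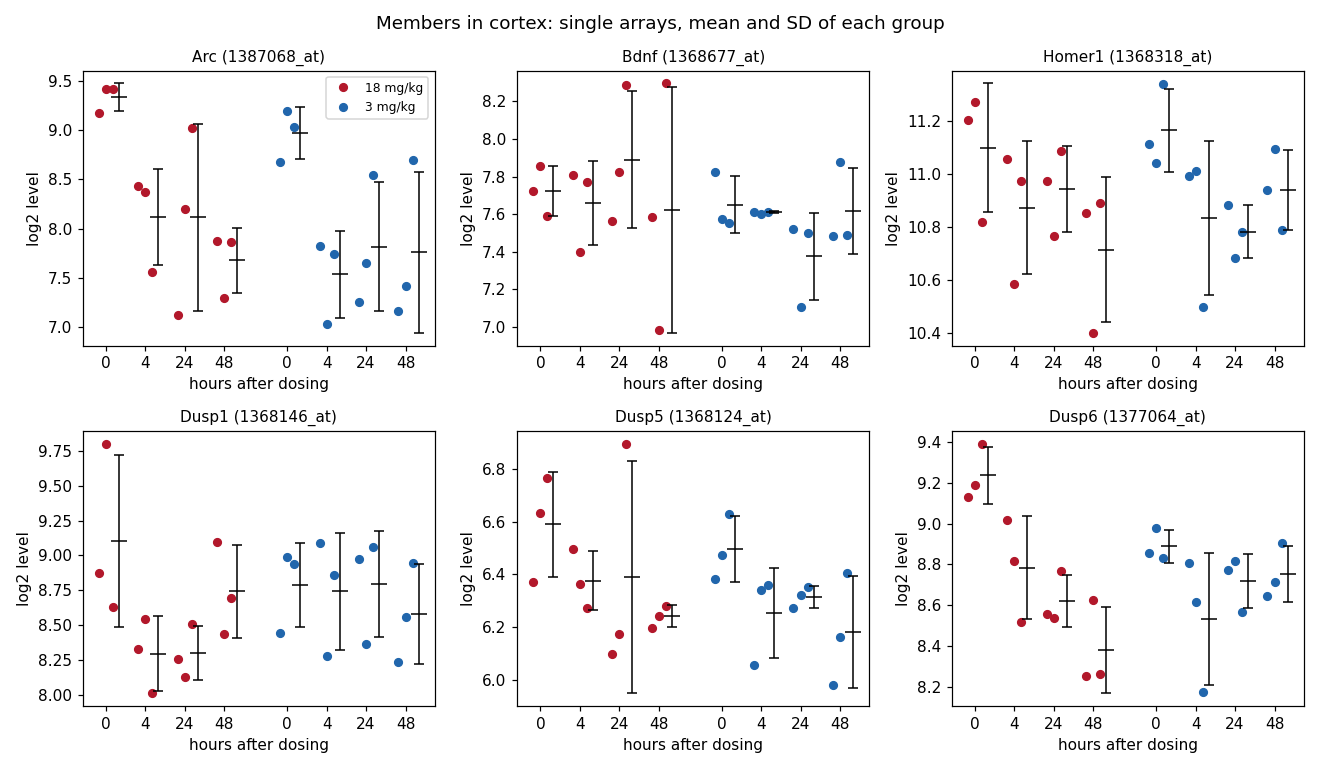
Log2 level in cortex of the probe set that represents each gene, by hours after dosing, with 18 mg/kg (red) left of 3 mg/kg (blue). Points are single arrays and black marks are the mean and SD of 3 arrays. Arc and Dusp6 are highest at 0 h in both arms, and Bdnf overlaps 0 h in all groups but 24 h after 3 mg/kg.

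Of the 36 pairs of member and cortex contrast, 0 passed in limma, 34 had a change below 0 and 15 (41.7%) had an unadjusted p below 0.05, against 12.3% of all probe sets over the same contrasts. The share of all probe sets that passed was 0.0741% at 24 h after 3 mg/kg and 0% in the other 5 cortex contrasts. These contrasts share their 0 h arrays within an arm, so the pairs are not independent. The same array that was high for Arc and Dusp5, replicate 3 at 24 h after 18 mg/kg, also had the highest reading of Homer1 probe set 1370454_at, 11.52, and an actin gap of 3.64.

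The mean of the 6 later cortex groups was also set against the mean of both 0 h groups. Arc averaged 7.84 ± 0.59 (SD, n = 18) later and 9.15 ± 0.28 (n = 6) at 0 h, a change of -1.32 ± 0.25 (SE, adjusted p = 0.14), and 16 of 18 later arrays lay below all 0 h arrays. Dusp6 averaged 8.63 ± 0.23 later and 9.06 ± 0.22 at 0 h, a change of -0.43 ± 0.087 (adjusted p = 0.18), again with 16 of 18 later arrays below all 0 h arrays. For Dusp5 the change was -0.25 ± 0.094 with 15 of 18 later arrays below, and for Homer1, Dusp1 and Bdnf it was -0.28 ± 0.097, -0.37 ± 0.17 and -0.06 ± 0.14.

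In this pooled comparison 0 of 6 members passed, while 0.00322% of all probe sets passed. At an unadjusted p below 0.05 there were 5 of 6 members, against 5.92% of all probe sets. These 5 are read on the same 0 h arrays and are not independent. The comparison was chosen with earlier results of these data known. Each member was read on its brightest probe set, whereas the share covers dim probe sets too. With the cortex arrays of an actin gap above 3 left out, an alternative added after the data were seen, Arc was at -1.67 (adjusted p = 0.17) and Dusp6 at -0.36 (adjusted p = 0.43), in a fit where 3 groups held 1 array each and the 4 h group after 18 mg/kg held none. Values of the striatal neuron and hepatocyte marker lists in the same comparison were as follows, and neither list had a marker past the threshold. All 6 measured markers of striatal neurons, cells of a region beneath the cortex, were above 0 (median change 0.48), with group averages of the list between 9.43 and 10.04 later and 8.82 and 9.66 at 0 h. All 7 hepatocyte markers were above 0 (median 0.87), with group averages between 5.36 and 8.68 later and 5.37 and 6.22 at 0 h. The median of all probe sets was -0.008. With the hepatocyte mean as a term, Arc was at -1.29 (adjusted p = 0.25) and Dusp6 at -0.46 (adjusted p = 0.25). The part of striatal neurons in these changes was not tested.

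**Figure D3:**
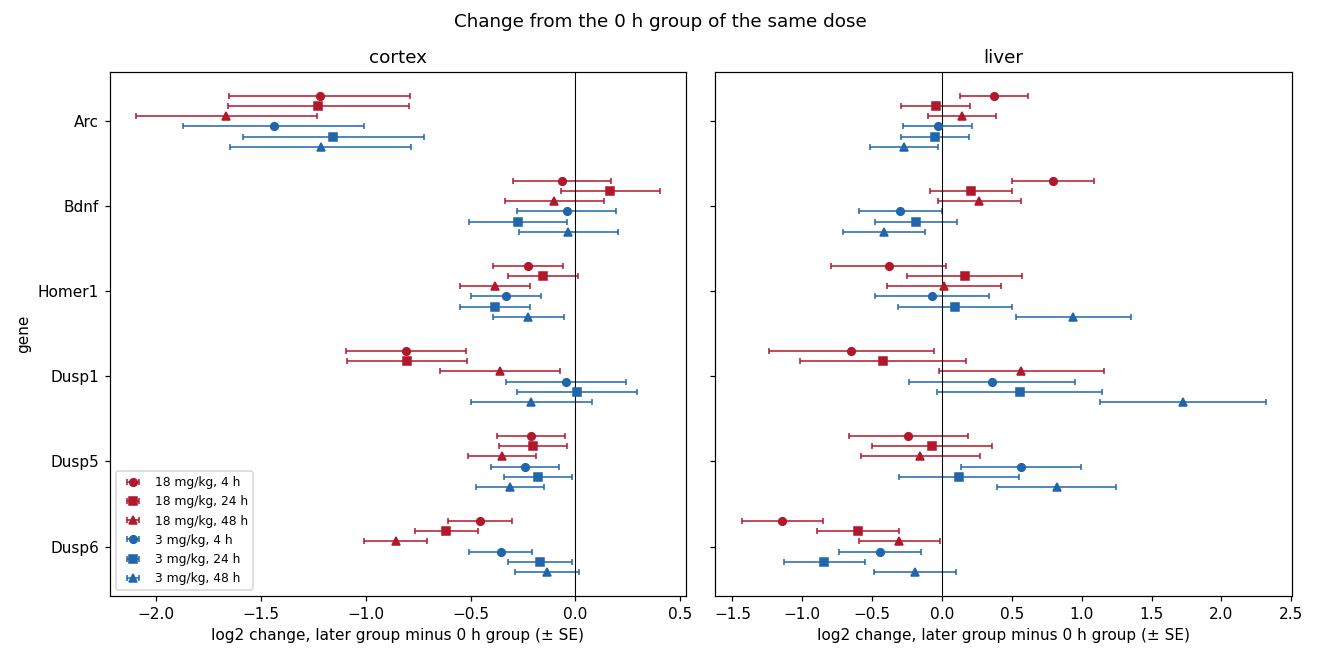
Log2 change from the 0 h group of the same dose, with its SE, for 6 genes in cortex (left) and liver (right), at 4 h (circles), 24 h (squares) and 48 h (triangles) after 18 mg/kg (red) and 3 mg/kg (blue). In cortex Arc lies between -1.66 and -1.15 in all 6 contrasts. In liver the doses fall on different sides of 0 for Bdnf on the probe set that represents it there. Without the compressed arrays this probe set is at 0.07 at 24 h after 3 mg/kg. On the other Bdnf probe set, not drawn, both doses lie below 0 h at 24 and 48 h in liver.

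In liver, Arc and Bdnf had their highest reading on the same array, one with a compressed spread of values. Arc read 5.28, 5.42 and 5.23 at 0 h, 6.48, 5.35 and 5.21 at 4 h, 5.21, 5.35 and 5.22 at 24 h, and 5.20, 5.38 and 5.77 at 48 h in the 18 mg/kg arm. All 12 Arc arrays of the 3 mg/kg arm lay between 5.22 and 5.75, with those at 48 h below those at 0 h. The array of 6.48 is that array, and with the compressed arrays left out the Arc change at 4 h after 18 mg/kg was -0.03, in place of 0.38 ± 0.24 (SE) with it.

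Bdnf, read in liver by probe set 1368678_at, gave 4.67, 5.13 and 4.83 at 0 h, 6.66, 5.28 and 5.08 at 4 h, 5.03, 5.28 and 4.95 at 24 h, and 5.20, 5.14 and 5.09 at 48 h in the 18 mg/kg arm. In the 3 mg/kg arm it gave 5.04, 5.80 and 5.03 at 0 h, 4.78, 4.95 and 5.25 at 4 h, 5.11, 5.28 and 4.92 at 24 h, and 4.83, 4.96 and 4.83 at 48 h. The 2 highest values, 6.66 and 5.80, are those of the 2 compressed arrays, and only the 48 h arrays after 3 mg/kg lay apart from, below, their 0 h arrays. The Bdnf change at 4 h after 18 mg/kg was 0.80 ± 0.29 (adjusted p = 0.44), and 0.30 without the compressed arrays. Over the 24 liver arrays the level correlated with the SD of the array at r = -0.79 for Arc and -0.89 for Bdnf, as a description of arrays that share these 2 outlying ones.

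Dusp6 had mean liver levels below those of 0 h in all 6 contrasts, none of which passed. Dusp6 arrays of the 18 mg/kg arm read 10.33, 10.09 and 11.04 at 0 h, 8.86, 9.38 and 9.79 at 4 h, 10.11, 9.53 and 10.01 at 24 h, and 10.32, 9.51 and 10.71 at 48 h. Dusp6 arrays of the 3 mg/kg arm read 9.98, 10.36 and 10.67 at 0 h, 9.89, 9.84 and 9.95 at 4 h, 9.69, 9.39 and 9.40 at 24 h, and 10.14, 10.21 and 10.07 at 48 h. The 4 h arrays after 18 mg/kg and the 4 and 24 h arrays after 3 mg/kg lay below all 0 h arrays of their arm, and the other 3 later groups overlapped them.

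The largest Dusp6 change in liver was -1.14 ± 0.29 (SE) at 4 h after 18 mg/kg (adjusted p = 0.37), and -0.90 without the compressed arrays. At 24 h after 3 mg/kg it was -0.84 (adjusted p = 0.13), and the other changes were between -0.60 and -0.19. The later groups averaged 9.82 ± 0.43 (SD, n = 18) and the 0 h groups 10.41 ± 0.39 (n = 6), a change of -0.59 ± 0.17 (adjusted p = 0.14). The other 2 Dusp6 probe sets gave -0.59 ± 0.18 and -0.67 ± 0.24 (adjusted p = 0.16 and 0.20).

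Dusp1 had its highest liver reading at 48 h. Dusp1 arrays of the 18 mg/kg arm read 8.95, 8.42 and 9.26 at 0 h, 8.19, 7.78 and 8.70 at 4 h, 7.13, 8.82 and 9.41 at 24 h, and 10.06, 8.90 and 9.37 at 48 h. Dusp1 arrays of the 3 mg/kg arm read 7.35, 7.32 and 9.08 at 0 h, 7.99, 8.29 and 8.55 at 4 h, 9.01, 8.06 and 8.36 at 24 h, and 8.35, 9.45 and 11.13 at 48 h. The change at 48 h after 3 mg/kg was 1.72 ± 0.59 (SE, adjusted p = 0.063), with overlap between the groups. It was 0.98 (adjusted p = 0.31) without replicate 3 at 48 h, the array of 11.13, and 2.31 (adjusted p = 0.012) without replicate 3 at 0 h. The dimmer Dusp1 probe set, 1368147_at, averaged 5.17 ± 0.51 (SD, n = 3) at 48 h after 3 mg/kg and 4.97 ± 0.11 at 0 h.

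Dusp5 spread widely in liver. Dusp5 arrays of the 18 mg/kg arm read 7.75, 7.09 and 8.08 at 0 h, 6.60, 7.47 and 8.12 at 4 h, 7.16, 7.46 and 8.08 at 24 h, and 7.79, 7.25 and 7.41 at 48 h. Dusp5 arrays of the 3 mg/kg arm read 6.54, 5.92 and 7.68 at 0 h, 7.12, 7.63 and 7.10 at 4 h, 7.36, 6.0 and 7.15 at 24 h, and 7.28, 7.38 and 7.95 at 48 h. All later groups overlapped their 0 h group. The largest change was 0.82 ± 0.43 (SE) at 48 h after 3 mg/kg (adjusted p = 0.19), 0.43 without the compressed arrays and 1.30 (adjusted p = 0.032) without replicate 3 at 0 h.

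Homer1 gave opposite answers in liver depending on the probe set. The representative read 8.55, 8.67 and 8.84 at 48 h after 3 mg/kg, against 8.43, 6.55 and 8.26 at 0 h, where the 6.55 comes from the compressed array. The change was 0.94 ± 0.41 (SE, adjusted p = 0.12), and 0.34 without the compressed arrays, although the groups did not overlap. In the other 5 contrasts it was between -0.38 and 0.16, with levels from 7.31 to 8.87 in the 18 mg/kg arm and from 7.38 to 8.02 at 4 and 24 h after 3 mg/kg.

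In the same contrast, probe set 1368319_a_at of Homer1 fell and 1370656_a_at rose. Probe set 1368319_a_at read 5.28, 5.17 and 4.80 at 48 h after 3 mg/kg, against 7.10, 6.21 and 5.88 at 0 h, a change of -1.32 ± 0.33 (SE, adjusted p = 0.027). Probe set 1370656_a_at read 6.61, 6.15 and 6.25 at 48 h, against 5.59, 5.68 and 5.40 at 0 h, a change of 0.78 ± 0.22 (adjusted p = 0.035). Neither overlapped between the groups. The 48 h readings of 1368319_a_at and the 0 h readings of 1370656_a_at lay below the medians of their arrays. Whether such dim readings exceed background was not tested, so the sizes of these 2 changes are uncertain. The contrast had 9.34% of all probe sets past the threshold, 6% higher and 3.33% lower, and a median over all probe sets of -0.16. Both calls were kept with the 2 compressed arrays left out together (adjusted p = 0.035 for 1368319_a_at and 0.045 for 1370656_a_at). Leaving out single arrays of the 3 mg/kg arm at 48 h or replicates 1 or 2 at 0 h took both past 0.05, up to adjusted p = 0.16 for 1368319_a_at and 0.17 for 1370656_a_at.

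**Figure D4:**
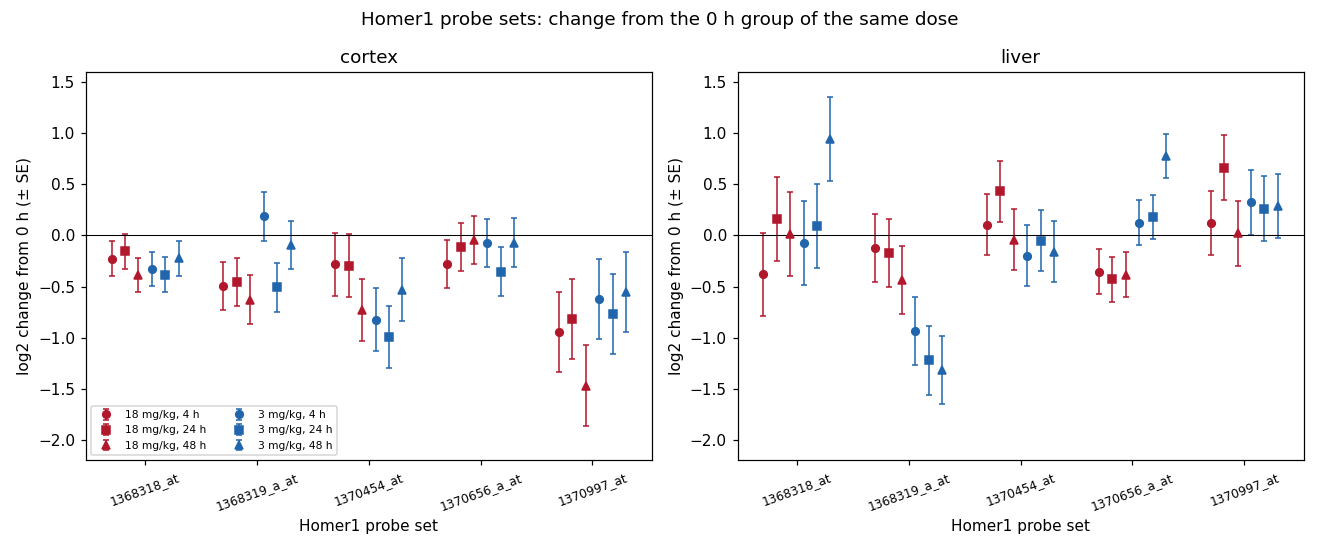
Log2 change from the 0 h group of the same dose, with its SE, for the 5 Homer1 probe sets in cortex (left) and liver (right), by time and dose. In liver at 48 h after 3 mg/kg (blue triangles) 1368319_a_at is at -1.32 and 1370656_a_at at 0.78. In cortex every probe set but 1368319_a_at lies below 0 in all 6 contrasts.

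Of the 36 pairs of member and liver contrast, 0 passed in limma on the representative probe sets, with 16 changes above 0 and 20 below. An unadjusted p below 0.05 was found for 5 pairs (13.9%), near the 13.6% of all probe sets. The shares of all probe sets that passed were 0.0258% at 4 h, 0% at 24 h and 0.0966% at 48 h after 18 mg/kg, and 0.0226% at 4 h, 0% at 24 h and 9.34% at 48 h after 3 mg/kg. Later groups against 0 h groups gave 0 of 6 members past the threshold, beside 0.0483% of all probe sets, and 1 of 6 at an unadjusted p below 0.05, beside 15.1%.

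**Figure D5:**
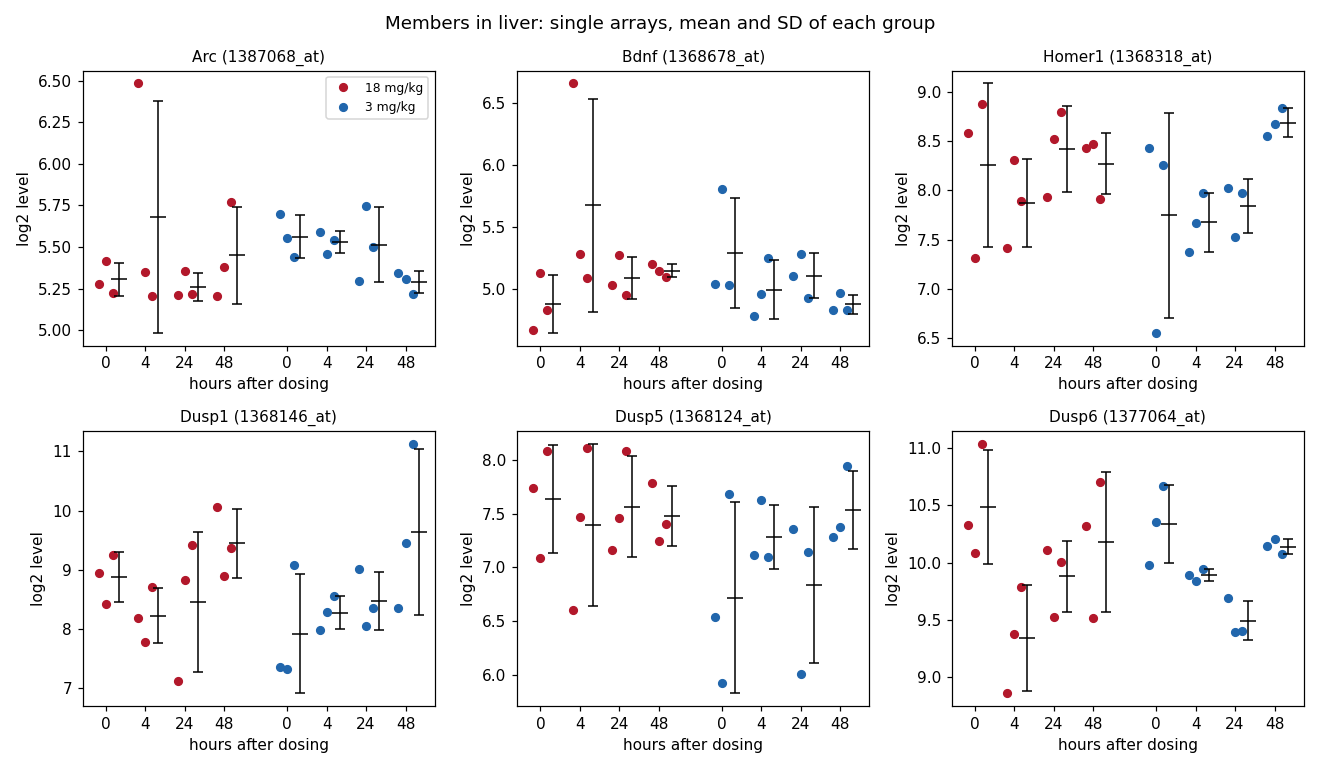
Log2 level in liver of the probe set that represents each gene, by hours after dosing, with 18 mg/kg (red) left of 3 mg/kg (blue). Points are single arrays and black marks are the mean and SD of 3 arrays. The highest Arc and Bdnf readings, 6.48 and 6.66, are the same array, and Dusp1 spreads from 8.35 to 11.13 at 48 h after 3 mg/kg.

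The doses were compared at matched times and over the whole time course. In cortex, the Dusp6 change at 18 mg/kg minus that at 3 mg/kg was -0.10 at 4 h, -0.45 at 24 h and -0.72 at 48 h, with F = 4.81 and an adjusted p of 0.23 in the moderated F test. At 48 h Dusp6 was at 8.38 ± 0.21 (SD, n = 3) after 18 mg/kg and 8.75 ± 0.14 after 3 mg/kg, a difference of -0.37 ± 0.15 (SE, adjusted p = 0.14). At 0 h the order of the means was the other way, 9.24 ± 0.14 in the 18 mg/kg arm and 8.89 ± 0.080 in the 3 mg/kg arm (difference 0.35, adjusted p = 0.99).

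For Arc the same differences were 0.22, -0.07 and -0.45, and for Dusp1 -0.76, -0.81 and -0.15, with adjusted p of 0.87 for Arc and 0.41 for Dusp1. In liver the smallest adjusted p of the F test was 0.51, for Bdnf. The F test called 0 of 6 members in each tissue, beside 0.00322% of all probe sets in cortex and 0.00966% in liver, and 1 member in cortex and 0 in liver had an unadjusted p below 0.05, beside 16.7% of all probe sets in cortex and 9.54% in liver.

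At matched times, 18 against 3 mg/kg called 0 of 24 pairs in each tissue, with 3 in cortex (12.5%) and 2 in liver (8.33%) at an unadjusted p below 0.05. These shares lay below those of all probe sets, 16.7% in cortex and 9.19% in liver. Of all probe sets in cortex, 0% passed at 0 and 24 h, 3.7% at 4 h and 1.32% at 48 h. Of those in liver, 0% passed at 0 and 4 h, 0.087% at 24 h and 0.029% at 48 h. The actin gap averaged 3.66 at 4 h after 18 mg/kg, against 2.09 after 3 mg/kg, in cortex, and with the gap as a term 0 of 24 cortex pairs passed.

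No member passed between 24 and 4 h or between 48 and 24 h. The largest steps in liver were those of Dusp1 at 48 h against 24 h, 0.99 after 18 mg/kg and 1.17 after 3 mg/kg (SE 0.59). The largest in cortex were 0.44 ± 0.29 (SE) for Dusp1 and -0.44 ± 0.43 for Arc, both at 48 h against 24 h after 18 mg/kg. In each tissue 0 of 24 pairs passed, with 0 in cortex and 1 in liver at an unadjusted p below 0.05, beside 5.88% of all probe sets in cortex and 3.9% in liver. Of all probe sets, 0.00322% passed at 48 h against 24 h after 18 mg/kg in cortex, 0.00322% at 24 h against 4 h after 18 mg/kg and 0.00966% at 24 h against 4 h after 3 mg/kg in liver, and 0% in the other 5 of these contrasts.

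Across the 24 cortex arrays, the correlation was r = 0.77 between Arc and Dusp5, 0.65 between Arc and Dusp6 and 0.52 between Dusp5 and Dusp6. The genes most like Arc were Fos (r = 0.90), Ier5 (0.86) and Egr2 (0.79), all immediate early genes, and the same 3 genes were most like Dusp5 at r = 0.73. Those most like Dusp6 were Mir351 (0.79), Cxcl2 (0.75) and Has2 (0.73). Bdnf was nearest to Nkiras1, Scn3a and Grsf1 (0.77 to 0.76), Homer1 to Pdp1, Hoxc9 and Camk1g (0.74 to 0.69), and Dusp1 to Elavl3, Qrich1 and Psd3 (0.64 to 0.62). These are descriptions over arrays that share time, dose and RNA quality.

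In liver the closest genes were others. Dusp1 was nearest to Il15 (r = 0.81), Filip1l (0.81) and Myc (0.79), and Dusp6 to Vgll4, Foxo3 and Cish (0.74 to 0.72). Dusp5 was nearest to Gsdmd, Mtmr14 and Lmtk2 (0.89 to 0.87), and its level correlated with the array SD at 0.71. Arc was nearest to Mab21l4, Wdr7 and Ctxn2 (0.90 to 0.88) and Bdnf to Pla2g2c, Nlgn3 and Neurl1 (0.94 to 0.91). Homer1 was nearest to Ehbp1, C2cd5 and Adi1 (0.90 to 0.87). The levels of Arc, Bdnf and Homer1 also correlated with the array SD, at -0.79, -0.89 and 0.65. These are descriptions over arrays that include the 2 compressed ones.

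Genes with related roles were counted from lists fixed with the members. In cortex, 0 measured genes passed in any of the later against 0 h contrasts or in the pooled comparison. Among 10 measured activity-induced transcription factors, 9 lay below 0 in the pooled cortex comparison, with a median of -0.46 against -0.008 over all probe sets, and the smallest p was that of Nr4a1, a nuclear receptor induced by activity (-0.86 ± 0.15 SE, adjusted p = 0.14). Among 6 other MAP kinase phosphatases 4 lay below 0 and 2 above, with a median of -0.06, and Dusp4 had the smallest p (-0.11, adjusted p = 0.81). Among 9 Homer relatives and partners 6 lay below 0, with a median of -0.06, and among 9 other activity-induced effectors 7 did, with a median of -0.02.

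In liver at 48 h after 3 mg/kg, where 9.34% of all probe sets passed, 2 of 5 measured genes of the ERK cascade rose. These were Map2k1, the kinase that phosphorylates ERK (1.81 ± 0.45 SE, adjusted p = 0.027), and Rps6ka3, a kinase downstream of ERK (1.07 ± 0.27, adjusted p = 0.027). Without replicate 2 at 0 h, the compressed array, Map2k1 was at 1.12 (adjusted p = 0.21) and Rps6ka3 at 1.03 (adjusted p = 0.17). Map2k1 passed with 20 of 24 single arrays left out and Rps6ka3 with 19 of 24, most of them outside the contrast. Neither passed with any single array of the 48 h group left out. Both also failed in the fit of only the groups compared (adjusted p = 0.13 for each).

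Of 5 measured ERK feedback inhibitors in the same contrast, Errfi1, which blocks the EGF receptor, rose (1.72 ± 0.52 SE, adjusted p = 0.043) and Spred3 fell (-0.90 ± 0.26, adjusted p = 0.037). Without the compressed 0 h array Errfi1 was at 0.82 (adjusted p = 0.34) and Spred3 at -0.62 (adjusted p = 0.27). Errfi1 passed with 12 of 24 single arrays left out, most of them outside the contrast, and Spred3 in 4 of 8 other settings. Neither passed with any single array of the 48 h group left out.

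Of 8 measured Bdnf relatives and receptors, Ntrk2, which encodes TrkB, fell (-0.78 ± 0.23 SE, adjusted p = 0.040), and of 9 activity-induced effectors Vgf fell (-0.78 ± 0.23, adjusted p = 0.042). Ntrk2 passed in 6 of 8 other settings and with 17 of 24 single arrays left out, and Vgf in 4 of 8 and with 14 of 24. Most of these arrays lie outside the contrast, and neither gene passed with any single array of its 48 h group left out. At 4 h after 18 mg/kg, where 0.0258% of all probe sets passed, Inhba, an activin subunit, fell (-1.33 ± 0.24, adjusted p = 0.044). Inhba passed in 3 of 8 other settings and with 8 of 24 single arrays left out, with adjusted p up to 0.86. It did not pass with any single 0 h array of the 18 mg/kg arm left out.

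Markers of several liver cell types were higher in the same 48 h group after 3 mg/kg, against a 0 h group that holds the compressed array. Csf1r (1.32) and Cd68 (1.79) rose among 8 macrophage markers, Lrat (1.5) among 5 of stellate cells and Kdr (0.87) among 4 of endothelium. List averages at 48 h and 0 h were 9.69 and 8.95 for macrophages, 8.51 and 7.68 for stellate cells, 8.63 and 8.21 for endothelium, and 13.12 and 12.38 for hepatocytes, of whose 7 markers 0 passed. The part of such cells in the members' levels was not tested.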

How the data were processed

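The authors deposited log2 expression values for 48 arrays of an Affymetrix rat gene expression platform; per the submitters' processing notes the values come from RMA and Partek, without versions, and the background and normalisation settings are not given in the sources used here. Per the labels' protocols, RNA was labelled from its 3' end after oligo(dT) priming. Values were used as deposited, with no filter, and 57 of 31099 probe sets that are controls were left out. Groups came from the labels. Models had a mean for each of 8 groups and were fitted over 24 arrays per tissue, or over all 48 arrays for the tissues at 0 h, with lmFit and eBayes in limma 3.58.1 (R 4.3.3). P-values were two-sided and adjusted by the Benjamini-Hochberg method over 31042 probe sets within a contrast, with a threshold of 0.05. Array number limits the precision. The members, lists and tests were chosen with earlier results of these data known. Genes named besides the members were the 3 with the highest correlation to each member and tissue, and those of the lists that passed, or otherwise had the smallest p. The models were tested on simulated data. Tables and figures were made in Python.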

Additional observations from a re-analysis of the deposited data

Results flagged for a closer look

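In these cases every array of one group moved away from the mean of its 0 h group in one direction and every array of the other group in the opposite direction. For liver Bdnf the change from 0 h at 18 mg/kg minus that at 3 mg/kg was 1.09 at 4 h (0.80 and -0.30), 0.40 at 24 h (0.21 and -0.19) and 0.68 at 48 h (0.27 and -0.42). The moderated F test of this dose difference over the time course gave an adjusted p of 0.51 for Bdnf. The Bdnf values rest on compressed arrays in the 0 h group of the 3 mg/kg arm and the 4 h group after 18 mg/kg. Without them Bdnf at 18 mg/kg was at 0.30 at 4 h, and at 3 mg/kg it was at -0.04, 0.07 and -0.16 at 4, 24 and 48 h, so its sign at 24 h turned. For liver Dusp1 at 4 h the change at 18 mg/kg minus that at 3 mg/kg was -1.01 (-0.65 and 0.36). The F test gave an adjusted p of 0.71 for Dusp1. Without the compressed arrays Dusp1 was at 0.06 after 3 mg/kg. On the dimmer Dusp1 probe set, 1368147_at, the difference had the other sign, 0.47, with the compressed arrays kept.

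The tissues also moved in opposite directions in 4 cases, where the difference was not tested. The change in cortex minus that in liver was -0.93 for Dusp1 at 48 h after 18 mg/kg (-0.36 and 0.57). In this case the array nearest its 0 h mean was at -0.006 in cortex and at 0.025 in liver, and the arrays overlapped 0 h in both tissues. For Dusp5 the change in cortex minus that in liver was -0.81 at 4 h (-0.24 and 0.57) and -1.14 at 48 h (-0.31 and 0.82), both after 3 mg/kg. For Homer1 at 48 h after 3 mg/kg it was -1.17 (-0.22 and 0.94) on the probe set that represents it. On 1368319_a_at both tissues lay below 0 h, at -0.09 in cortex and -1.32 in liver. So did both on 1370454_at, at -0.53 in cortex and with liver means of 6.61 at 0 h and 6.45 at 48 h. On 1370656_a_at (-0.07 and 0.78) and 1370997_at the tissues moved apart. For 1370997_at cortex was at -0.55, and the liver means were 7.31 at 0 h and 7.59 at 48 h. The liver values for Dusp5 and Homer1 after 3 mg/kg rest on a 0 h group that holds a compressed array, and without it Dusp5 was at 0.17 at 4 h and 0.43 at 48 h and Homer1 at 0.34 at 48 h.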

How the results depend on the processing

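Alternatives were other scalings, filters and array weights, covariates, a replicate block, other 0 h groups and each array left out in turn. Of 7104 alternative values for the members, 296 had the other sign, and 1 of these passed the threshold there. It was Homer1 in liver at 48 h after 3 mg/kg, which read -1.32 on probe set 1368319_a_at. For later times against 0 h in cortex, where the main count of members called was 0, it was 1 with 1 probe set per gene, with brighter probe sets only, with median centring and with quantile normalisation, each time Dusp6 at 48 h after 18 mg/kg. It was 2 (Bdnf and Homer1 at 48 h after 18 mg/kg) with arrays of an actin gap above 3 left out, where that 48 h group held 1 array, assumed to vary like the other groups, and 2 further groups held 1 and 1 held none. It was 7 with array weights, and 0 to 1 with single arrays left out. In liver it was 5 with the actin gap as a covariate, 6 with array weights, 1 (Dusp1 at 48 h after 3 mg/kg) with the replicate block (adjusted p = 0.038), and 0 to 2 with single arrays left out.

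Later groups against 0 h groups called 2 members in cortex with array weights and 1, Arc, with the replicate block and actin gap together (adjusted p = 0.038), and 1 in liver, Dusp6, with the actin gap as a covariate or with array weights. The dose F test in cortex called 1 with array weights. At matched times, 18 against 3 mg/kg called 1 in cortex with array weights and 0 to 1 with single arrays left out, and in liver 1 with the actin gap, 3 with array weights and 0 to 1 with single arrays left out. The weights were estimated with a warning that they had not converged. The cause of these moves was not tested.

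Between tissues at 0 h, single arrays left out gave 4 to 5 members called. Over the 8 other settings the adjusted p of Dusp1 ran from 0.025 to 0.52, while that of Dusp5 was at most 0.042. All members were thus called where Dusp1 passed. The replicate block changed no other count of calls for the members. Same-numbered arrays of a tissue correlated in their deviations from group means at a median of -0.044 in cortex and 0.006 in liver, over 84 pairs in each. Single pairs ran from -0.71 to 0.48 in cortex and from -0.52 to 0.61 in liver, so a median near 0 cannot exclude pairing. Whether cortex and liver arrays of the same number come from the same rat was not checked, and the tissue comparison treated them as independent. With arrays of an actin gap above 3 left out, no array of the 18 mg/kg group at 4 h remained, so the pooled comparison and the F test in cortex could not be fitted as planned. The Homer1 probe sets were checked in settings chosen after seeing the data: 1368319_a_at and 1370656_a_at each passed in 7 of 8 settings and with 19 of 24 single arrays left out. Both failed in the fit of only the groups compared (adjusted p = 0.12 and 0.14). Most of the 24 arrays lie outside the contrast and could not move the estimate. Of the arrays inside it, only replicate 3 at 0 h could be left out with the calls kept. The 3 arrays a group, dim probe sets and uneven RNA quality limit what these contrasts can show.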
